A study of Drosophila melanogaster with 3 samples.

Results

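The mitochondrial ribosome is built from RNAs encoded in the mitochondrial genome and from proteins encoded in the nucleus, and it makes the few membrane proteins of the respiratory chain that mitochondria synthesise themselves. Its protein genes are named mRpL for the large subunit, which forms peptide bonds, and mRpS for the small subunit, which decodes the messenger RNA. These genes are scattered over the fly genome and are housekeeping genes, needed wherever cells respire. The set described here holds the 73 protein-coding genes of the Ensembl BDGP6 annotation whose symbols start with mRpL or mRpS followed by a digit, out of 13945 protein-coding genes on the chromosomes with peaks. Of the 73 genes, 47 belong to the large and 26 to the small subunit.

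The study mapped, by chromatin immunoprecipitation and sequencing (ChIP-seq), where the protein CG12104 sits on chromatin in Drosophila melanogaster embryos. Its single group of 3 biological replicates came from whole embryos of mixed sex, 0 to 24 h old, of 1 transgenic line that stably makes CG12104 with GFP at its C-terminus, and an antibody against GFP was used for the precipitation. Embryos of all stages and tissues were pooled, so a peak cannot be placed in a cell type, and precipitations from untagged embryos were not analysed here. The data are peak lists in the dm6 build: 4060 reproducible peaks selected by the irreproducible discovery rate (IDR, which keeps regions that rank alike in the replicates), 26959 candidate regions of the pooled replicates, and 30000 candidate regions of each replicate. Signal is the authors' peak height on the scale of its own list, so replicates are compared by rank, and the lists hold no read counts, so depth is unknown.

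A gene is called when the summit of an IDR peak lies within 500 bp of one of its transcription start sites (TSS). Of the 73 mitochondrial ribosomal protein genes, 32 were called (43.8%), against 18.7% of all protein-coding genes. Of these 32 peaks, 30 were shared with a neighbouring gene (93.8%), against 63.3% of all called protein-coding genes. Each of the 30 had a divergent neighbour, which lies on the other strand and is transcribed away from the mitochondrial ribosomal protein gene. Where a gene has several starts, the one nearest the summit was used. By that rule the IDR summit lay between both start sites in 27 of the 30 pairs. The start sites were 20 to 695 bp apart, with a median of 290.5 bp. The 27 include mRpL35, whose summit lay between its start and a Mitofilin start 453 bp away. The closest Mitofilin start was 192 bp from that of mRpL35, and the summit lay outside that shorter gap. The share of summits between the starts was not computed for divergent pairs of all protein-coding genes.

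The DNA between the start sites of such pairs is printed here because it is where the summits fell. Each sequence runs 5′ to 3′ on the strand of the mitochondrial ribosomal protein gene, from the base after the neighbour's start to the base before the gene's own start, holds no annotated exon, and comes from NCBI Release 6 (dm6). Capitals mark matches, on either strand, to the DRE word TATCGATA and its core ATCGAT, the E-box CAGGTG, the Sox word ATTGTT, the M1BP word GGTCACAC, the ewg word GCATGCGC and the Zelda word CAGGTAG. The first 3 pairs had strong peaks, the next 2 hold the words CAGGTG or TATCGATA near the summit, the next 2 are among the shortest gaps with a peak, and the last 3 had no IDR peak.
mRpS10 and Art3 (chr3R:15229409-15229664, plus strand): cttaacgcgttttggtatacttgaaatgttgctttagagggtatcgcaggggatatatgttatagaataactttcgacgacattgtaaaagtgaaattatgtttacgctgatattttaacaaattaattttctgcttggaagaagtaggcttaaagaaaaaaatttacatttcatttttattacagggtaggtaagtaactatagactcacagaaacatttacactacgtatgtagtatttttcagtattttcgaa
mRpL24 and betaggt-I (chr2L:4945362-4945578, minus strand): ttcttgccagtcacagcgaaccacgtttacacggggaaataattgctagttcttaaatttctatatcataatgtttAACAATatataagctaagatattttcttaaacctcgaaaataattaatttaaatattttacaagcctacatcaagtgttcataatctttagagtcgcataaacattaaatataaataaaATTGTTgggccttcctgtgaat
mRpS2 and Mon1 (chr2L:4850420-4850640, minus strand): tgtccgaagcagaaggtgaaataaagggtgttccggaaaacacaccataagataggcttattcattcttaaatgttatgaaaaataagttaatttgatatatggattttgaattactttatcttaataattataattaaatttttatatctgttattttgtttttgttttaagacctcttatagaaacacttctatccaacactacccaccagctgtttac
mRpS21 and Droj2 (chr3R:13381810-13382105, minus strand): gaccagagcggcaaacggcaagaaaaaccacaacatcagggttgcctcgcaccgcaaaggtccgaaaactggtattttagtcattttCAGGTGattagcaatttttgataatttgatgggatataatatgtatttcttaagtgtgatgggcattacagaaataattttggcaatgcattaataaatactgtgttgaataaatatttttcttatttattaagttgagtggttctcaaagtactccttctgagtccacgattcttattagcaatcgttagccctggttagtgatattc
mRpL39 and Prosbeta2 (chr3L:14999667-14999950, minus strand): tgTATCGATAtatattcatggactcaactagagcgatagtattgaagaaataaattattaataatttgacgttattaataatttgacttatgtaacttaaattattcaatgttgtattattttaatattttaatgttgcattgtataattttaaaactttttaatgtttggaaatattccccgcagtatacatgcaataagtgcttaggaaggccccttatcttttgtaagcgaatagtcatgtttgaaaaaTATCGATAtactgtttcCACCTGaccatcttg
mRpS11 and Ns1 (chr3R:17072676-17072731, plus strand): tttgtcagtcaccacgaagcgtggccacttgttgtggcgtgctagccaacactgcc
mRpL51 and Uba4 (chr2L:8517381-8517410, minus strand): aatcactacattttccaacactgccggctt
mRpL21 and rept, not called (chr3L:19255062-19255339, minus strand): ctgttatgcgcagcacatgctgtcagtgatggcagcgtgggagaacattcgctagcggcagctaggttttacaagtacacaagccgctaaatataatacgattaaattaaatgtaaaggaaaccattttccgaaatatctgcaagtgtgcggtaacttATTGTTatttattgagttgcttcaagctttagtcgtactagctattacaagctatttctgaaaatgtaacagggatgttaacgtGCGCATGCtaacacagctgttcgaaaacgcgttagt
mRpL15 and CtIP, not called (chr3L:20436210-20436249, minus strand): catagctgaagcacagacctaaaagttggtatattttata
mRpS18C and CG15535, not called (chr3R:30423930-30423973, plus strand): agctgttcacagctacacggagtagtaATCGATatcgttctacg

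In these sequences the summit fell on base 132 of 256 for mRpS10 and Art3, on base 94 of 217 for mRpL24 and betaggt-I, and on base 70 of 221 for mRpS2 and Mon1. For mRpS21 and Droj2 the summit was base 84 of 296, next to the word CAGGTG at bases 88 to 93. For mRpL39 and Prosbeta2, a subunit gene of the proteasome, the summit was base 264 of 284 and lay between the second TATCGATA (bases 253 to 260) and the word CACCTG (bases 270 to 275). The mRpS11 summit was base 38 of 56 and the mRpL51 summit base 2 of 30. These are bases of the IDR summits, and summits of the overlapping replicate regions differed. In replicates 1, 2 and 3 they were shifted by -47, -18 and 39 bp at mRpL39, so none lay between those words. At mRpL51 the shifts were 7, 35 and 45 bp, all outside the gap, and at mRpS21 they were 0, -1 and -85 bp.

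The 6 strongest peaks stood apart from the rest. The highest pooled signal, 1490.4, was at mRpL41 (2R, 15217582 to 15217924), where the region ranked 9, 5 and 11 in replicates 1, 2 and 3. The peak at mRpS10 (3R, 15229367 to 15229720) had a signal of 1437.5 and ranks of 10, 7 and 6. Its summit lay 125 bp upstream of the mRpS10 start and 132 bp upstream of the start of Art3, an arginine methyltransferase gene. The peak at mRpS23 (2L, 13835308 to 13835605) had a signal of 984.0 and ranks of 51, 27 and 29. The peak at mRpL23 (3L, 2373451 to 2373728) had a signal of 906.8 and ranks of 50, 34 and 39. All 4 were thus among the 51 highest regions of every replicate's list of 30000.

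The next pair of genes had peaks of intermediate signal. mRpL24 (2L, 4945260 to 4945709) had a signal of 488.1, with ranks of 214, 321 and 294 in replicates 1, 2 and 3. mRpS2 (2L, 4850499 to 4850661) had a signal of 422.0, with ranks of 356, 360 and 535. Below them the signal dropped to 233.9 at mRpL20, and the other 25 called genes lay between 106.4 and 219.7. The median signal over the 32 called genes was 162.0, and that over all called protein-coding genes was 187.0. Of the 32 genes, 15 had a peak among the 2030 highest of the IDR set. Over all 2613 called protein-coding genes the count was 1542, a larger share.

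**Figure D1:**
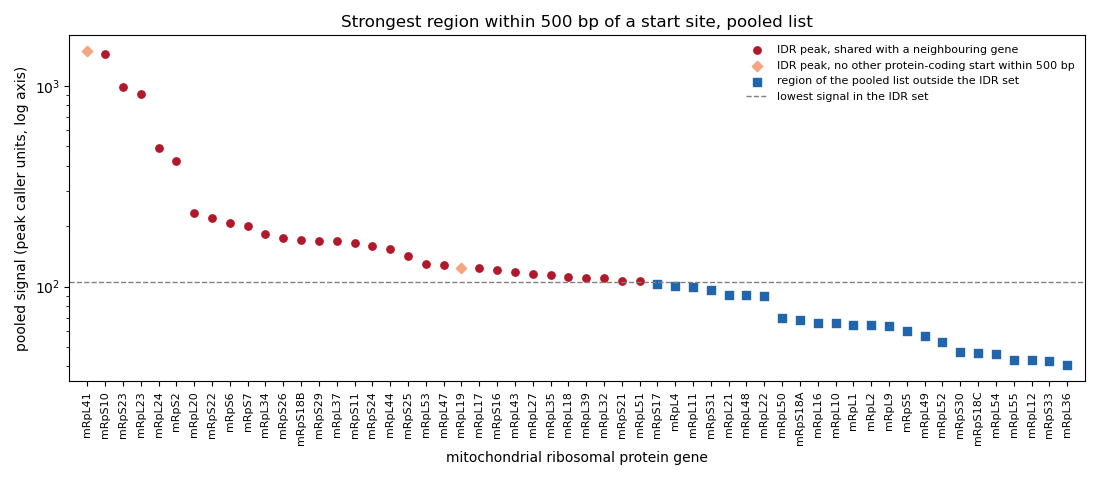
Signal of the strongest pooled region within 500 bp of a start site (log axis, peak caller units) for the 56 mitochondrial ribosomal protein genes that had one, in falling order. The points for mRpL41, mRpS10, mRpS23 and mRpL23 lie at 906.8 or above, and the dashed line at 105.9 is the lowest signal in the IDR set.

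Among peaks of middle signal was that at mRpL20 (ranks 1899, 1094 and 681). Its summit lay 279 bp upstream of mRpL20 and 120 bp upstream of Icmt, which encodes an isoprenylcysteine methyltransferase. mRpS22 (signal 219.7, ranks 1538, 1128 and 1611) shared its peak with CG5003, and mRpS6 (207.5, ranks 1267, 1550 and 2327) with Cip4. mRpS7 (201.2, ranks 1929, 1326 and 1666) shared its peak with Cdk1, the mitotic cyclin-dependent kinase gene. The 4 genes ranked inside the 4060 highest regions in all 3 replicates.

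The peaks of lower signal were less even between replicates. mRpL34 (182.1, shared with the dystroglycan gene Dg) ranked 731 in replicate 1 but 2954 and 4153 in replicates 2 and 3. mRpS29 (168.6, shared with the DNA repair gene rad50) ranked 2204, 13601 and 4859. By contrast mRpS26 (174.0, shared with CG13698) ranked 1698, 1683 and 3365, and mRpS18B (170.1, shared with Kua) ranked 1953, 2280 and 2994. mRpL37 (167.8) ranked 1390, 2811 and 2667. The called genes mRpS18B and mRpS11 had a second IDR peak, with signals of 121.5 and 114.2, that overlapped the same replicate regions as their first.

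At these genes the summit lay at varied places in the gap. At mRpL41 it was 136 bp upstream of the start. At mRpS23 it was 370 bp upstream of that gene and 122 bp upstream of CenG1A, so nearer to the neighbour, and at mRpL23 it was 73 bp inside the gene and 123 bp upstream of CG9004. It was 124 bp upstream of mRpL24 and 94 bp upstream of betaggt-I, a protein prenylation gene. It was 152 bp upstream of mRpS2 and 70 bp upstream of Mon1, a vesicle trafficking gene. Positions are given next relative to each start, negative where the summit is upstream. Summits were nearly midway at mRpS22 (-200 bp, with CG5003 at -192 bp), mRpS26 (-225 bp, with CG13698 at -205 bp) and mRpS29 (-329 bp, with rad50 at -308 bp). They were nearer the mitochondrial ribosomal protein gene at mRpS6 (-77 bp, with Cip4 at -371 bp), mRpL34 (-87 bp, with Dg at -297 bp), mRpS18B (-74 bp, with Kua at -254 bp) and mRpS7 (-169 bp, with Cdk1 at -231 bp). At mRpL37 the position was -198 bp.

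**Figure D2:**
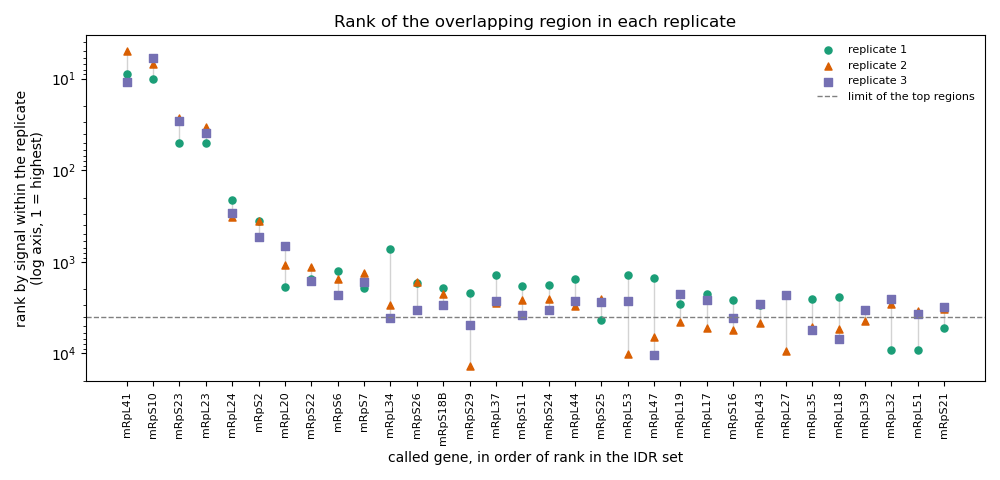
Rank by signal, within each replicate's own list, of the region that overlaps the strongest IDR peak of each of the 32 called genes (log axis, rank 1 at the top). The 10 genes at the left rank within 2327 in every replicate, and the points spread wider to the right, down to 13601 for mRpS29 in replicate 2.

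The remaining called genes were mRpS11 (signal 164.9), mRpS24 (159.5), mRpL44 (153.9), mRpS25 (141.8), mRpL53 (130.3), mRpL47 (128.7), mRpL19 (124.2), mRpL17 (123.1), mRpS16 (120.8), mRpL43 (118.2), mRpL27 (115.1), mRpL35 (114.5), mRpL18 (112.2), mRpL39 (110.9), mRpL32 (110.0), mRpL51 (106.4) and mRpS21 (106.4). Their neighbours had varied roles. They included Ns1, a nucleostemin gene (mRpS11), Apc2, a gene of the adenomatous polyposis coli family (mRpS24), and Snr1, a Brahma complex subunit gene (mRpL44). AGO1, which encodes the Argonaute of the microRNA pathway, shared the peak of mRpL53, and the histone demethylase gene Kdm3 and CG8176 that of mRpL47. A few neighbours have mitochondrial roles themselves: Mitofilin, an organiser of the inner membrane (mRpL35), Taz, the tafazzin gene of cardiolipin remodelling (mRpL18), and qless, of coenzyme Q synthesis (mRpL32). The other shared peaks were with nmdyn-D6 (mRpS25), Tudor-SN (mRpL17), cg (mRpS16), CG30183 (mRpL43), CG15435 (mRpL27), Prosbeta2 (mRpL39), Uba4 (mRpL51) and Droj2 (mRpS21). Those at mRpS23 and mRpL23 were shared with CenG1A and CG9004. At mRpL53 the peak also lay within the window of CG33155, which has the same start site as mRpL53.

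The peaks not shared with another protein-coding gene were those at mRpL41 and mRpL19. The nearest start of another protein-coding gene to mRpL41 was that of CG8079, 762 bp away and divergent, and a noncoding gene, lncRNA:CR44463, had a start within the window. mRpL19 (3R, 8673675 to 8674124, ranks 2869, 4516 and 2248) had no other protein-coding start within 1 kb. Its summit lay 209 bp upstream of its start.

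Relative to the mitochondrial ribosomal protein gene, the summit of the strongest peak lay upstream of the start in 31 of 32 cases and 73 bp downstream in mRpL23. The median position was -144 bp (quartiles -216 and -84.5), where the median over all called protein-coding genes was -155 bp and 89.8% lay upstream. In the pairs the neighbour's start was the nearer in 18 cases and the mitochondrial ribosomal protein gene's in 12, 1 of them a tie (mRpL53 and CG33155). When a gene was counted as nearest at any of its IDR peaks, shared or not, 40.0% of the 30 genes were nearest. By the same rule it was 56.7% of all protein-coding genes with a shared peak. The share at the shared peak alone was not computed for all genes. In 13 of the 30 pairs both distances agreed within 50 bp, a count not made over shared peaks of all protein-coding genes. Summits of the overlapping replicate regions lay a median of 11, 15.5 and 28 bp from the IDR summit in replicates 1, 2 and 3, and up to 339 bp, so the nearer gene of a pair is often not resolved. Of the 34 IDR peaks at these genes, 29 have a width of 450 bp, as do 91.9% of all IDR peaks. A width common to so many peaks does not measure how well each summit is placed. The other peaks at these genes were narrower, from 163 bp at mRpS2 to 354 bp at mRpS10.

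**Figure D3:**
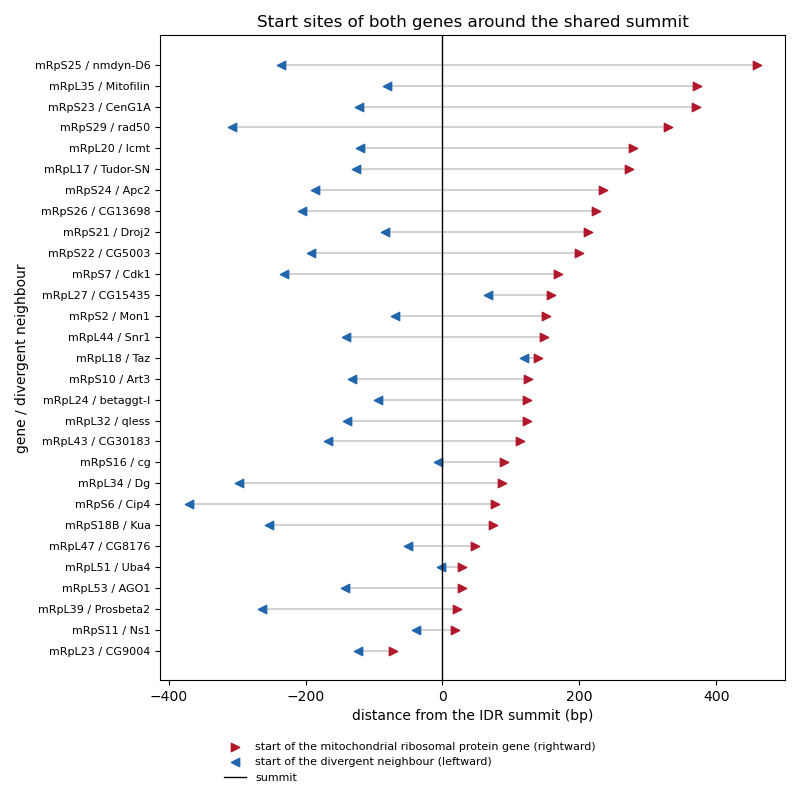
Start sites around the shared summit (at 0) for 29 of the pairs, each turned so that the mitochondrial ribosomal protein gene is transcribed to the right; the x axis is in bp. For a gene with several starts, the one nearest the summit is drawn. By these starts, summits lie between the 2 start sites except at mRpL27, mRpL18 and mRpL23.

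When each summit was given only to the gene of its nearest start, 14 of the 73 mitochondrial ribosomal protein genes were called (19.2%), against 13.6% of all protein-coding genes. Gene spacing differed too: 60 of the 73 had the start of another protein-coding gene within 1 kb (82.2%), against 42.9% of all protein-coding genes, and 58 had a divergent one (79.5%), against 36.2%. Genes with a divergent start within 1 kb were called in 31 of 58 cases (53.4%), against 34.9% of all such genes. With any other protein-coding start within 1 kb the figures were 31 of 60 (51.7%), against 31.0%. Of the 13 with no other start within 1 kb only mRpL19 was called (7.69%), against 9.52%. Neither of the 2 genes with a close start that is not divergent, mRpL13 and mRpL36, was called, against 9.65%.

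The distance from each gene to its closest divergent start, over all annotated starts, was divided into 4 ranges after the values were seen. For mRpL35 this distance is 192 bp. With starts 0 to 99 bp apart, 7 of 18 mitochondrial ribosomal protein genes were called (38.9%), against 27.6% of all protein-coding genes in that range. At 100 to 299 bp the count was 11 of 15 (73.3%, against 38.4%), at 300 to 499 bp 10 of 20 (against 46.4%) and at 500 to 1000 bp 3 of 5 (60.0%, against 23.5%). Each share was above that of all genes, by 3.59 percentage points at 300 to 499 bp and by 36.5 at 500 to 1000 bp, with few genes behind each value.

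**Figure D4:**
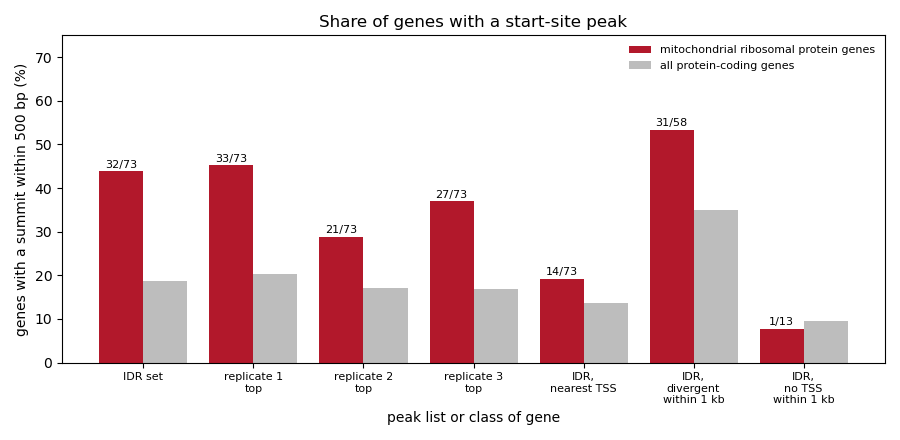
Percentage of genes with a summit within 500 bp of a start site, for the mitochondrial ribosomal protein genes (left bar of each pair, with counts) and all protein-coding genes (right bar). The left bar is the higher in each list shown, by 25.1 percentage points in the IDR set and by 5.57 with nearest-start assignment, except for genes with no other start within 1 kb.

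The replicates gave different counts. Each replicate's list was cut to its 4060 highest regions, as many as the IDR set holds. In replicate 1, 33 of the 73 mitochondrial ribosomal protein genes were called (45.2%, against 20.2% of all protein-coding genes), in replicate 2, 21 (28.8%, against 17.0%), and in replicate 3, 27 (37.0%, against 16.9%). The mean was 37.0% ± 8.22 (SD, n = 3), against 18.0% ± 1.85 for all protein-coding genes. The share was higher than that of all genes in 3 of 3 replicates, by 19.0 ± 6.69 percentage points, and the spread between replicates was wider for the small set. Of the 4060 IDR regions, 4058 were also among the 4060 highest of the pooled list, so a peak could enter the set with weak support in a replicate. The IDR peak itself overlapped a top region in all 3 replicates for 16 of the 32 called genes. It did so in 2 replicates for 11 genes and in 1 for 5. This split was not counted over all called protein-coding genes. The stricter overlap of the closing section kept 16 of the 32. It kept 1796 of all 2613 called protein-coding genes, a larger share. Peaks were then required to overlap a top region in both other replicates. This left 20 genes called without replicate 1 and 17 without replicate 3 (against 13.9% and 14.7% of all protein-coding genes). Of all 2613 called protein-coding genes 1943 and 2047 were kept, both larger shares. Without replicate 2 the counts were 22 of the 32 and 1959 of the 2613, again a larger share. Peaks at the 32 genes were thus less often supported across replicates than those of all called genes. The 5 genes supported by 1 replicate were mRpL18, mRpL35, mRpL47, mRpS16 and mRpS29, each of them by replicate 1. Of the 32, 28 were within the top regions of replicate 1, 21 of replicate 2 and 26 of replicate 3. In the whole lists of candidates, which are permissive, 57, 51 and 56 genes had a summit within 500 bp in replicates 1, 2 and 3 (78.1%, 69.9% and 76.7%), against 49.3%, 44.1% and 48.4% of all protein-coding genes.

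The 41 genes that were not called fell into 2 sets. In the pooled list 56 of the 73 had a candidate region (76.7%, against 46.2%), so 24 uncalled genes had one outside the IDR set and 17 had none. The 24 had pooled ranks from 4184 to 19918. Just outside the IDR set lay mRpS17 (signal 103.5), mRpL4 (100.2), mRpL11 (99.9), mRpS31 (96.4) and mRpL21 (91.2), and just inside it mRpS21 and mRpL51 (106.4 each), mRpL32 (110.0), mRpL39 (110.9) and mRpL18 (112.2). The IDR minimum was 105.9. Of the uncalled genes, 6 had a top region in 1 replicate and 35 in none. For uncalled genes a rank is that of the strongest replicate region with its summit within 500 bp of a start. mRpS17 ranked 1298 in replicate 1 (summit at -347 bp) and 5913 in replicate 2 (-129 bp), with no such region in replicate 3. mRpS31 ranked 1752, 10291 and 26192, with summits at -249, -254 and 375 bp. Its replicate 3 summit thus lay downstream of the start. The 10 genes with no region near a start in any list were mRpL3, mRpL14, mRpL15, mRpL30, mRpL38, mRpL40, mRpS14, mRpS28, mRpS34 and mRpS35. No uncalled gene had an IDR summit within 1 kb of a start. Over all protein-coding genes the share with a summit rose from 18.7% within 500 bp to 21.3% within 1 kb. An IDR summit lay within 5 kb of 17 uncalled genes, a count not made over all protein-coding genes. The lists do not tell an absent peak from one too weak to be listed.

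Both subunits had called genes. Small subunit genes were called in 14 of 26 cases (53.8%) and large subunit genes in 18 of 47 (38.3%), beside the 18.7% of all protein-coding genes. In the replicates' top regions the small subunit share was 53.8%, 46.2% and 46.2% and the large subunit share 40.4%, 19.1% and 31.9% in replicates 1, 2 and 3, against 20.2%, 17.0% and 16.9% of all protein-coding genes. The large subunit share in replicate 2 was thus near that of all genes. The small subunit share was the higher in 3 of 3 replicates, by 18.2 ± 7.62 percentage points (SD, n = 3). With nearest-start assignment 5 of 26 small subunit genes (19.2%) and 9 of 47 large subunit genes (19.1%) were called, against 13.6% of all genes. The median signal of called genes was 172.0 for the small and 126.0 for the large subunit. No test was made of the difference, since genes are not replicates.

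By chromosome arm, 7 of 12 genes were called on 2L (58.3%, against 19.0% of all protein-coding genes there), 7 of 12 on 2R (58.3%, against 17.4%), 6 of 17 on 3L (35.3%, against 20.4%) and 11 of 21 on 3R (52.4%, against 20.3%). On the X chromosome 1 of 11 was called (9.09%, against 16.1%). That gene was mRpS25, whose peak (signal 141.8, X, 14583216 to 14583665) ranked 4295, 2547 and 2748, with its summit 459 bp upstream of its start and 236 bp upstream of nmdyn-D6; a noncoding transposon copy starts 5 bp from it. Of the 11 X genes, 9 had a divergent start within 1 kb, and 1 of these was called (11.1%, against 26.4% of all such X genes). On the other arms 30 of 49 such genes were called (61.2%, against 36.5%). The comparison between arms was made after the values were seen and rests on 11 X genes.

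Of 38 other genes of mitochondrial gene expression, 2 were called in the IDR set (5.26%, against 18.7% of all protein-coding genes). In the permissive pooled list the order was the other way, with a candidate region at 23 of the 38 (60.5%, against 46.2%). The 2 genes called in the IDR set were mEFTu1 and GatA. mEFTu1 encodes a mitochondrial translation elongation factor (signal 136.1, rank 2816, 2R, 13507158 to 13507607, summit 174 bp upstream). GatA encodes a subunit of the amidotransferase that charges mitochondrial glutamine tRNA (108.3, rank 3918, shared with P5cr). The share in the replicates was 3.51% ± 1.52 (SD, n = 3), lower than that of the mitochondrial ribosomal protein genes in 3 of 3. The list holds the mitochondrial aminoacyl-tRNA synthetases, translation factors, and transcription factors such as TFAM, and also tko and bonsai, which encode mitochondrial ribosomal proteins under other names. Neither tko nor bonsai was called. Of the 38, 21 had another protein-coding start within 1 kb (55.3%).

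Cytoplasmic ribosomal protein genes, taken by symbol, were called in 65 of 93 cases (69.9%), and the respiratory chain and ATP synthase genes in 17 of 86 (19.8%), against 18.7% of all protein-coding genes. The respiratory chain share was thus near that of all genes. Of called genes, the peak was shared for 30 of 32 mitochondrial ribosomal protein genes, for 16 of 17 respiratory chain genes (94.1%) and for 36 of 65 cytoplasmic ribosomal protein genes (55.4%), against 63.3% of all called genes. Summits lay closer to the start in the cytoplasmic set, at a median of -47 bp, where the mitochondrial set had -144 bp and the respiratory chain -132 bp. With no other start within 1 kb, 1 of 13 mitochondrial and 19 of 34 cytoplasmic ribosomal protein genes were called (7.69% and 55.9%), against 9.52% of all such genes, so the mitochondrial share was near that of all genes. These values were not tested against each other.

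Words of known or proposed promoter factors were counted on both strands in the 201 bases centred on the summit. Shares are given for the 32 windows of the mitochondrial ribosomal protein genes, then for the 2040 IDR peaks within 500 bp of a protein-coding start, which lie in the same kind of place, and then for all 4060 IDR peaks. ATTGTT, a word bound by Sox proteins, was in 9 of the 32 windows (28.1%), against 25.3% of start-site peaks and 25.5% of all peaks. The DRE word TATCGATA, of the replication-related element found at many housekeeping promoters, was in 2 (6.25%, against 6.62% and 3.45%), and its core ATCGAT, which TATCGATA contains, in 5 (15.6%, against 14.8% and 9.63%). The DRE shares of these genes were thus near those of start-site peaks in general. CAGGTG was in 2 (6.25%, against 4.9% and 4.68%), GGTCACAC, the M1BP word, in 2 (6.25%, against 3.73% and 2.12%) and TATAAA in 12 (37.5%, against 42.0% and 39.5%). Lower shares were found for GAGAG, in 4 (12.5%, against 19.1% and 20.9%), TCTTTT, in 5 (15.6%, against 25.9% and 26.3%), and TCAGT, an initiator word, in 6 (18.8%, against 29.9% and 33.7%). GCATGCGC (0.343% and 0.32%) and CAGGTAG (0.539% and 0.788%) were in none of the 32. With 32 windows, 1 window is 3.12 percentage points, so most of these shares lie within a few windows of those of other peaks.

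The same 11 words were counted in promoters cut at 250 bp before to 50 bp after the outermost start, for the 32 called genes, the 41 uncalled genes and all protein-coding genes. Promoters of all called protein-coding genes were not counted apart, so the 32 are not set beside a like set here. TATCGATA was in 9 of the 32 called genes (28.1%) and in 6 of the 41 uncalled genes (14.6%), against 9.37% of all promoters. ATCGAT was in 12 (37.5%) and 15 (36.6%), against 23.3%, ATTGTT in 13 (40.6%) and 10 (24.4%), against 32.2%, and TATAAA in 17 (53.1%) and 17 (41.5%), against 45.9%. Other words were less frequent in called genes than in all promoters: GAGAG was in 4 (12.5%) and 8 (19.5%), against 29.8%, and TCAGT in 11 (34.4%) and 17 (41.5%), against 51.6%. TCTTTT was in 9 (28.1%) and 11 (26.8%), against 30.1%. CAGGTG was in 3 (9.38%) and 3 (7.32%), against 9.34%, and GGTCACAC in 3 (9.38%) and 5 (12.2%), against 7.71%. GCATGCGC was in no called and 1 uncalled gene (2.44%), against 1.05%, and CAGGTAG in none of the 73, against 1.64%. A match is a run of letters and not a measured site. The median GC content was 32.6% in the windows of the 32 genes and 33.3% in those of all 2040 IDR peaks within 500 bp of a protein-coding start.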

How the data were processed

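The 3 ChIP-seq libraries form 1 group of separate biosamples, numbered as in their labels. Candidate regions came from each replicate, and from all of them pooled, with 1 control alignment as background, and IDR was then applied to those lists, according to file inventories the authors deposited. Not given in the sources used here are the aligner and the peak caller. Chromatin was sonicated to 200 to 800 bp, per the labels. The deposited values are a signal on the scale of its own list, the -log10 of a q-value, and the summit offset; the authors did not scale signal between replicates. The dm3 lists were not used here.

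Start sites of all transcripts were taken from Ensembl BDGP6 release 115 and sequence from NCBI Release 6, with 1-based dm6 coordinates. An IDR peak took the rank of the highest replicate region that overlaps it by at least 1 bp. A peak is shared when its summit is also within 500 bp of a start of another protein-coding gene. The 4060 regions of highest signal of each replicate are its top regions. Counts are set beside the percentage of all protein-coding genes called by the same rule, with no significance test: there is 1 group, and genes that share a peak are not independent. The searches were tested on 200 simulated summits and their regions. For all 200 they gave the same genes and overlaps as a direct comparison of every position.

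The genes, lists and motif words were chosen with earlier results of these data known. All called genes are named, with ranks for the 15 of highest signal, 5 genes on each side of the threshold, their neighbours (1 is counted but not reported here) and the called genes of the pathway list; the arms, the ranges of start distance, and the other uncalled genes and ranks named were added after their values were seen. Python 3.11.15 with numpy 2.4.6, pandas 2.3.3 and matplotlib 3.10.9 was used. Alternatives are given in the closing section.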

Additional observations from a re-analysis of the deposited data

How the results depend on the processing

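The count of 32 called genes was within 1.5 times under a 200 or 1000 bp window, with peaks required to cover a start, and with outermost starts only. It was 14 with nearest-start assignment, 15 with the 2030 highest IDR peaks, 56 with the whole pooled list and 16 with overlap of at least 50% in all 3 replicates. Without 1 replicate it was 17 to 22, with 20 without replicate 1 and 17 without replicate 3. These sets hold the IDR peaks that overlap a top region in both other replicates, so they hold fewer peaks by construction. These sets and the stricter overlap each kept a smaller share of the 32 genes than of all called protein-coding genes. The share minus that of all protein-coding genes, 25.1 percentage points, remained above 0 in every alternative. It was 17.9 at 200 bp, 5.57 with nearest starts, 9.49 with the 2030 peaks, 9.04 with the stricter overlap and 8.61 to 16.1 without 1 replicate. Shared peaks numbered 16 at 200 bp, 12 with nearest starts, 16 with covered starts, 14 with the 2030 peaks, 47 in the pooled list, 15 with the stricter overlap and 16 to 20 without 1 replicate, against 30. As a share of called genes this was 16 of 22 at 200 bp and 16 of 23 with covered starts; the share over all genes was not computed under these alternatives. The median position of -144 bp was -119 at 200 bp, -82 with nearest starts, -124 with covered starts, -152 with the 2030 peaks, -150 with the stricter overlap and -150 to -149 without 1 replicate. The median stayed upstream of the start in each. No paired analysis was possible because there is 1 group. Depth is unknown, so no interval for a single peak can be given.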
